A study of Mus musculus with 7 samples.

Results

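The array used to profile sorted cortical cells carried probe sets for the genes of microRNAs and of small nucleolar RNAs (snoRNAs). A probe set is a group of oligonucleotides that reads 1 transcript or part of one. Probe sets were taken as members when their only gene symbol in the array annotation began with Mir followed by a digit or an l, with Snora or Snord, or with Scarna. This gave 365 of the 35556 probe sets, with 354 gene symbols, of which 305 had microRNA symbols and 60 had snoRNA symbols. The microRNA probe sets carried 300 symbols. Of these, 298 probe sets were named for single hairpins, and 7 belonged to the long transcripts of the microRNA host genes Mir99ahg, Mir100hg, Mir17hg and Mir670hg. The snoRNA probe sets carried 54 symbols and comprised 33 of the box C/D type, 23 of the box H/ACA type and 4 of small Cajal body RNAs (scaRNAs). Another 98 probe sets with several symbols, at least 1 of them a small RNA, were not members.

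Cells came from the cerebral cortex of wild-type C57BL/6 mouse embryos at embryonic day 14. Cortices had been electroporated at embryonic day 13 with constructs that included green fluorescent protein, and fluorescent cells were sorted 24 h later. In 3 samples Trnp1, which encodes a nuclear protein of cortical progenitors, had been knocked down, and 4 samples were controls. Each sample is labelled a biological replicate, with no statement of how many embryos it pooled, nor of the knockdown construct. If samples shared embryos, the p-values would measure technical spread only. The comparison asks which of these transcripts differ 1 day after the knockdown.

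MicroRNAs are cut from hairpins in longer primary transcripts by Drosha with Dgcr8 in the nucleus and by Dicer1 in the cytoplasm, and the mature strand is loaded into an Argonaute protein. The seed, near the 5′ end of the mature strand, pairs with messenger RNAs, so hairpins from different loci with 1 seed form a family. Many hairpins lie in introns of protein-coding or long non-coding host genes, or side by side in clusters. Almost all mouse snoRNAs are also released from introns: box C/D RNAs guide the methylation of ribose in ribosomal RNA with the methyltransferase Fbl, box H/ACA RNAs guide pseudouridylation with Dkc1, and scaRNAs act on spliceosomal RNAs. In the embryonic cortex the miR-9, miR-124 and let-7 families are known for roles in neurogenesis and its timing. RNA was purified on silica columns, which retain short RNAs poorly, and amplified as a whole transcriptome, so a signal named for a microRNA is not taken as the amount of its mature strand. It may come from the hairpin, its primary transcript or its host.

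The families that recur in the results are shown first, because members with the same mature strand or seed were read by separate probe sets at separate loci. Sequences are mature strands from RefSeq on build GRCm38.p6, where 270 of the 296 hairpin symbols had 1 or more. They are written 5′ to 3′ with the seed, bases 2 to 8, in capitals. The Mir99 and Mir125 members, with some of the let-7 members, lie in 3 loci of similar order.
Mir99a, miR-99a-5p, chr16:77598940-77598961, plus strand: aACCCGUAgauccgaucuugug
Mir100, miR-100-5p, chr9:41531437-41531458, plus strand: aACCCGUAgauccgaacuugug
Mir99b, miR-99b-5p, chr17:17830194-17830215, plus strand: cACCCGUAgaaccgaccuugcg
Mirlet7c-1, let-7c-5p, chr16:77599672-77599693, plus strand: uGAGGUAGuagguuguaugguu
Mirlet7e, let-7e-5p, chr17:17830366-17830387, plus strand: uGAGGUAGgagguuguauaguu
Mir125b-2, miR-125b-5p, chr16:77646279-77646300, plus strand: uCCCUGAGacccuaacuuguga
Mir125b-1, miR-125b-5p, chr9:41581940-41581961, plus strand: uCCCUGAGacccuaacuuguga
Mir125a, miR-125a-5p, chr17:17830817-17830840, plus strand: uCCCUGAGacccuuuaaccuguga

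The 2 Mir125b loci encode 1 mature strand, and the Mir99 and Mir125 families each had 3 members here with 1 seed. The hairpin of Mir99a, whose probe set varied most across the arrays, spans chr16:77598936-77599000 on the plus strand. It is printed with its 2 mature strands in capitals.
Mir99a hairpin, 65 bases: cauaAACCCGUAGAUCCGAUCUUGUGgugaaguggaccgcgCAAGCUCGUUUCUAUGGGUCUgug

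A second group is shown because its loci are clusters read by several probe sets each: Mir17 and Mir20a lie in the Mir17 cluster on chromosome 14, Mir93, Mir106b and Mir25 in an intron cluster of Mcm7 on chromosome 5, and Mir221 and Mir222 next to each other on chromosome X. Mir92b, on chromosome 3 outside these clusters, is shown because it shares the seed of Mir25.
Mir17, miR-17-5p, chr14:115043684-115043706, plus strand: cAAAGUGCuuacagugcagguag
Mir20a, miR-20a-5p, chr14:115044183-115044205, plus strand: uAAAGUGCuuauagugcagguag
Mir93, miR-93-5p, chr5:138165574-138165596, minus strand: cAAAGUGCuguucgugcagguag
Mir106b, miR-106b-5p, chr5:138165787-138165807, minus strand: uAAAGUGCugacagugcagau
Mir25, miR-25-3p, chr5:138165332-138165353, minus strand: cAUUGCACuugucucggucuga
Mir92b, miR-92b-3p, chr3:89227126-89227147, minus strand: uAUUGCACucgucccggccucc
Mir221, miR-221-3p, chrX:19146307-19146329, minus strand: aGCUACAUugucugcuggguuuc
Mir222, miR-222-3p, chrX:19146901-19146923, minus strand: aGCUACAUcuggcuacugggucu

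The last group holds single members described below: the neural Mir9-1, and Mir330 and Mir150, which are among the hairpins with the smallest p.
Mir9-1, miR-9-5p, chr3:88215613-88215635, plus strand: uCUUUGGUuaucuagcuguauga
Mir330, miR-330-5p, chr7:19181486-19181507, plus strand: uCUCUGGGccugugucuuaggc
Mir150, miR-150-3p, chr7:45121798-45121819, plus strand: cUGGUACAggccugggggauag

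Over all probe sets the 7 arrays had medians from 4.398 to 4.611 (log2), and precision is limited by how few arrays there are. Trnp1 was measured at 5.07, 4.999, 5.24 and 5.22 in the controls and at 4.80, 4.85 and 4.55 in the knockdown arrays, with every knockdown array below every control, as labelled. It differed by -0.40 (SE 0.12), with an exact two-sided permutation p of 0.0286, the smallest that the 35 splits of the arrays allow, and a limma adjusted p of 0.815. Of 12 cortical progenitor and neuron markers 11 were measured, with a median level of 10.01, and 4 of the 11 were higher in knockdown arrays, with a median difference of -0.07. All 5 endothelial markers and all 5 markers of the GABA neuron lineage were higher in knockdown arrays, by a median of 1.12 and 1.34. In the control arrays the mean endothelial marker level ranged from 4.07 to 6.80 and in the knockdown arrays from 5.19 to 7.23. For the GABA lineage these ranges were 4.24 to 4.58 and 4.71 to 7.17. All 5 microglial and all 3 measured erythroid markers were also higher, by a median of 0.235 and 0.72, while 1 of 3 muscle and 1 of 3 liver markers were. With the array medians set equal, 4 of the 5 GABA lineage, 4 of the 5 microglial and 2 of the 11 cortical markers were higher, and after loess normalization 6 of the 11 cortical ones were. None of these markers passed the test over all probe sets. Their part in the results on small RNAs was not tested, and in these bulk samples fewer cells of a type cannot be told apart from less RNA per cell.

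MicroRNA probe sets were dim and snoRNA probe sets were of middle brightness, a statement on signal, since levels of different probe sets are not on 1 scale of abundance. The median level over the 7 arrays was 3.42 for the microRNA probe sets, 5.51 for the snoRNA probe sets and 4.47 for all probe sets. A mean level under 4 was found for 207 of the 305 microRNA probe sets (67.9%), for 10 of the 60 snoRNA probe sets (16.7%) and for 41.6% of all probe sets. Of the 207 microRNA probe sets under level 4, 23 (11.1%) held 1 identical value in 3 or more arrays, a share close to the 10.2% of all probe sets under that level.

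The brightest microRNA probe sets were few. The host gene probe set of Mir100hg had a mean level of 9.69, followed by Mir598 at 9.53, Mir692-1 at 8.49, Mir670hg at 8.26, Mir99a at 7.91 and Mir346 at 7.65. Mir598 was measured at 9.59, 9.35, 9.40 and 9.41 in controls and at 9.66, 9.44 and 9.86 in knockdown arrays, and these ranges overlapped. Its host Xkr6, which encodes a membrane protein, was dim at 3.82, as was Grid1, the glutamate receptor gene that holds Mir346, at 3.95. Among the snoRNAs, Scarna17 was highest at 10.9, followed by Snord104 at 9.81, Snord49b at 9.36, Snord33 at 8.91 and Snora3 at 8.45.

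**Figure D1:**
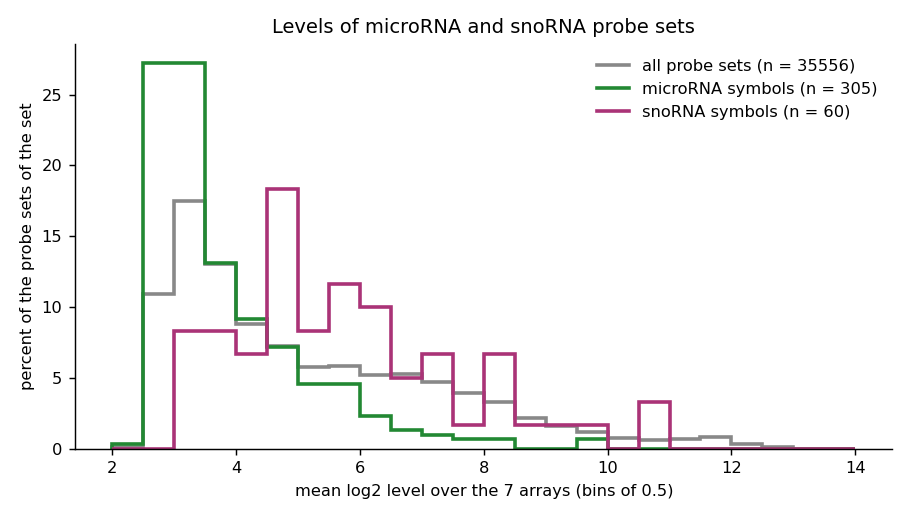
Distribution of the mean log2 level over the 7 arrays (x axis, bins of 0.5) as the percent of probe sets of each set (y axis) for all, microRNA and snoRNA probe sets. The microRNA curve peaks below 4, where 67.9% of its probe sets lie, and 16.7% of the snoRNA probe sets lie there.

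No microRNA or snoRNA probe set differed between knockdown and control after adjustment over all 35556 probe sets. Across the whole table limma called 0 probe sets at an adjusted p under 0.05 (0% of those tested), and the smallest adjusted p of any member was 0.815. At an unadjusted p under 0.05, 9 microRNA probe sets were higher and 3 were lower in the knockdown arrays, where 2.92% of all probe sets were higher and 2.96% lower, together 5.89%. The microRNA shares, 2.95% and 0.984%, were thus at and below that background. Most microRNA probe sets lay under level 4, where 2.46% of all probe sets were higher and 0.676% lower at that p. For snoRNAs, 4 probe sets were higher (6.67%) and 0 lower. Among all probe sets within the interquartile range of snoRNA levels, 4.08% were higher and 3.32% lower. All knockdown arrays lay above all control arrays for 11 microRNA probe sets and below them for 4, against 3.34% and 2.91% of all probe sets, and for snoRNAs the counts were 1 and 0. In all, 13 members were higher and 3 lower at that p.

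The snoRNA probe sets were mostly higher in the knockdown arrays, and none passed the adjusted threshold. Of the 60, 47 were higher (78.3%), with a median difference of 0.29 (interquartile range 0.05 to 0.65), while over all probe sets 51.8% were higher with a median of 0.01. Among all probe sets within the interquartile range of snoRNA levels, 4.54 to 6.73, 53.0% were higher with a median of 0.02. The direction was shared by the types, with 25 of 33 box C/D, 18 of 23 box H/ACA and 4 of 4 scaRNA probe sets higher. The types were read on the same 7 arrays and are not independent, and the 4 scaRNA probe sets carry 3 symbols. With the 3 pairs of identical probe sets each counted once, 44 snoRNA probe sets were higher, with a median of 0.27. The median over single probe sets of the standard deviation within groups was 0.70 for snoRNA probe sets, 0.36 for all probe sets of the same levels and 0.19 for microRNA probe sets.

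The higher snoRNA level was found in 2 of the 3 knockdown arrays. The median deviation of the 60 probe sets from their own control mean was 0.60 in the first, -0.08 in the second and 0.47 in the third knockdown array. The controls gave -0.08, 0.25, 0.17 and -0.28, so the second knockdown array lay inside the control range and the other 2 above it. Without knockdown replicate 2 the median difference of the snoRNA probe sets was 0.53, and 11 were higher at an unadjusted p under 0.05. The number of microRNA probe sets higher at that p also rose then, from 9 to 29. The share of all probe sets at that p in this fit was not counted. Without control replicate 4 the snoRNA number was 2. With the array medians set equal, which shifts the median of all probe sets to -0.10, the snoRNA median was 0.18 and 41 of 60 were higher. The microRNA median was 0.05 with 197 of 305 higher, but -0.05 with 120 higher on that scaling, so its direction depended on the scaling.

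**Figure D2:**
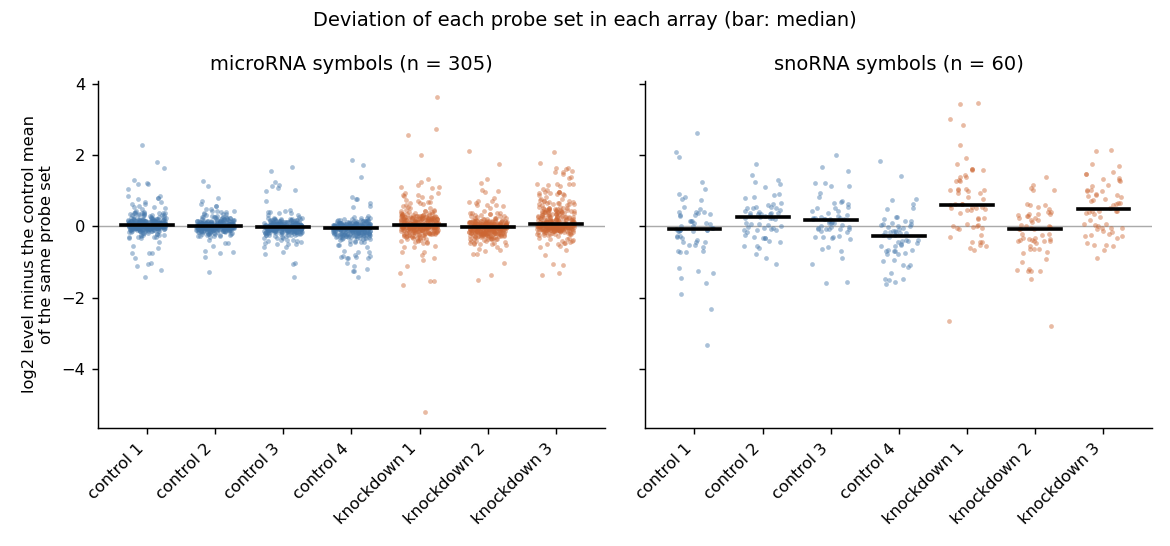
Log2 level minus the control mean of the same probe set (y axis) for each microRNA (left) and snoRNA (right) probe set in each array (x axis); bars are medians, and points are spread sideways for visibility. The snoRNA medians are 0.60 and 0.47 in knockdown arrays 1 and 3 and -0.08 in array 2, and the microRNA medians lie between -0.05 and 0.06.

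The snoRNA with the smallest p was Snord14e (probe set 10584580), a box C/D RNA from an intron of Hspa8, the gene of a constitutive chaperone. Its level was 7.27, 7.89, 7.77 and 6.62 in the controls and 10.4, 8.54 and 9.49 in the knockdown arrays. All 3 knockdown arrays lay above all controls, and the means were 7.39 ± 0.58 (SD, n = 4) and 9.48 ± 0.93 (SD, n = 3). The difference was 2.10 (SE 0.49, 95% interval 0.94 to 3.26; limma's unadjusted p = 0.00377, adjusted p = 0.815). The brightest probe set of Hspa8 (10368025) differed by -0.07 (SE 0.10), between 11.6 and 11.8 in all arrays. Whether it lies at the locus of Snord14e was not checked.

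Snora23, a box H/ACA RNA in the importin gene Ipo7, showed a similar pattern with overlap. It was at 8.17, 7.26, 5.86 and 6.42 in controls and at 9.78, 7.46 and 9.07 in knockdown arrays, a difference of 1.84 (SE 0.71), and the second knockdown array lay among the controls. Snord53, in the ribosome assembly gene Wdr43, was at 3.93, 4.74, 5.14 and 4.74 and then at 6.93, 5.11 and 6.09, a difference of 1.41 (SE 0.46). The second knockdown array was again the lowest of its group, just below the highest control. Snord85 differed by 0.84 (SE 0.30) from a control mean of 3.31, with knockdown values of 4.34, 3.50 and 4.60, of which the second was below the highest control.

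Some large snoRNA differences rested mainly on the first knockdown array. Snora44 had a difference of 1.62 (SE 0.80), with 8.42 in the first knockdown array and 6.05 and 5.36 in the others, against controls from 3.74 to 5.65. Snora20, in the chaperonin gene Tcp1, was at 7.32 in that array and at 3.78 and 4.69 in the others, and its controls ranged from 3.16 to 5.32. Snord118, a box C/D RNA of ribosomal RNA processing, was high in the first 2 knockdown arrays, at 5.98, 5.62 and 4.55 against controls from 4.04 to 4.90, a difference of 0.79 (SE 0.37). Its 2 probe sets held identical values in every array, as did the pairs of Scarna17 and Snora30, so each such pair is 1 measurement.

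None of the 13 lower snoRNA probe sets had an unadjusted p under 0.05. The smallest p among them belonged to Snord57, from an intron of Nop56, at 5.88, 4.95, 5.61 and 6.49 in controls and 5.17, 4.55 and 5.47 in knockdown arrays. The difference was -0.67 (SE 0.38), with overlap. Snord87, Snora69 and Snora70 differed by -0.79 (SE 0.93), -0.64 (SE 0.66) and -0.48 (SE 0.56), each with a wide standard error. Snord33, among the brightest, differed by -0.07 (SE 0.72), and its sign turned with a further quantile or a loess normalization.

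**Figure D3:**
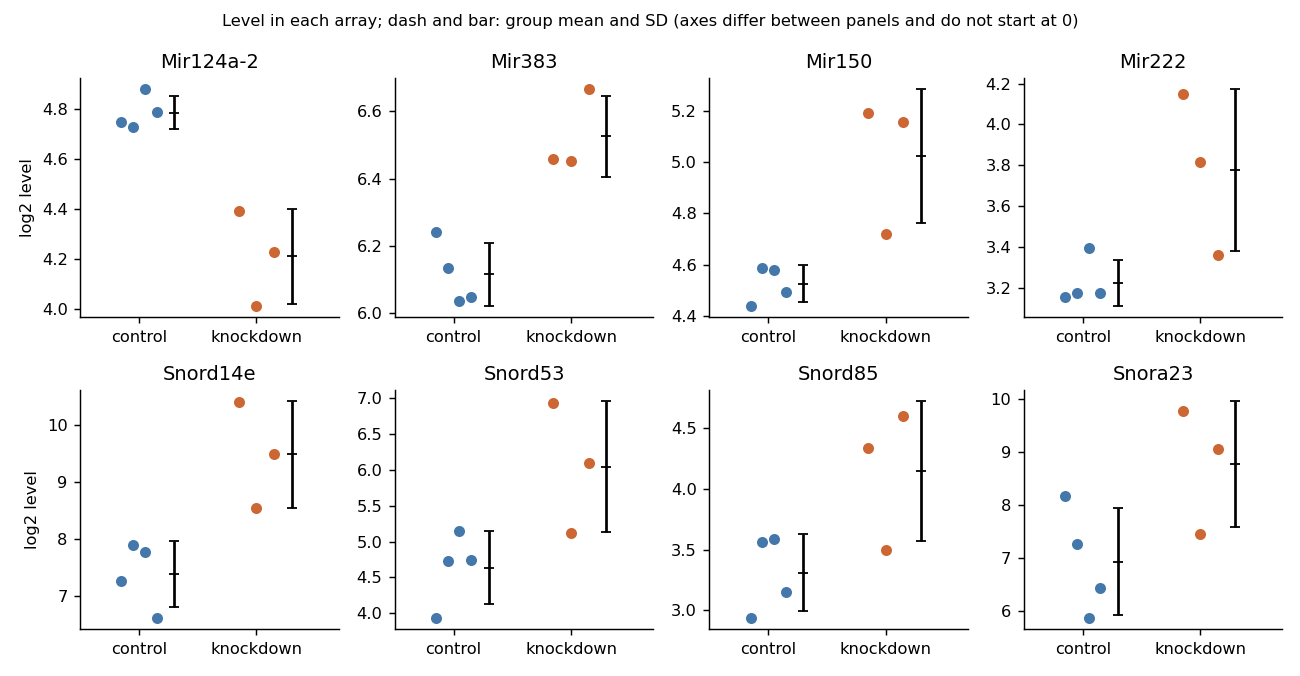
Log2 level (y axis, a separate range in each panel) of 8 members in the 4 control and 3 knockdown arrays (x axis), with points for arrays and the group mean and SD beside them. The groups are apart for Mir124a-2, Mir383, Mir150 and Snord14e and overlap for Mir222, Snord53, Snord85 and Snora23.

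Wide ranges were frequent among the snoRNA probe sets. The range over all 7 arrays, which includes any group difference, was over 2 log2 units for 31 of 60 snoRNA probe sets (51.7%), for 17.7% of all probe sets within the interquartile range of snoRNA levels and for 25 of 305 microRNA probe sets (8.20%). Among the 4 controls alone it was over 2 for 20 snoRNA probe sets (33.3%), for 9.46% of all probe sets of those levels and for 16 microRNA probe sets (5.25%). Snord61, in the RNA-binding protein gene Rbmx, was at 3.15, 6.73, 8.14 and 7.90 in controls and at 7.24, 3.69 and 7.49 in knockdown arrays. It was thus low in 1 array of each group, and the difference of -0.34 had a standard error of 1.45. Snord16a was at 3.78 in control replicate 1 and between 5.97 and 7.47 in the other arrays. Snord35b was at 7.61 in that same control array and between 3.47 and 5.40 in the others.

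Read by their brightest probe sets, the host genes of the snoRNAs had differences close to 0. Whether each of these probe sets lies at the host locus was not checked. A RefSeq gene whose span holds the snoRNA was found for 58 of the 60 probe sets, and 31 of them had a measured host among 24 genes. These 31 had a median difference of 0.31 with 22 higher, and 23 lay above their own host. The 24 hosts had a median of -0.06, with 8 higher and 16 lower (17 higher after loess normalization, so this split depended on the scaling), a range of -0.22 to 0.20, and 0 at an unadjusted p under 0.05. These hosts were bright, with a median level of 10.7. Over all probe sets with a level over 8, the median difference was -0.135 and 27.2% were higher, so the host values lay near those of bright probe sets. The 15 members in 10 ribosomal protein genes had a median of 0.25 and their hosts one of -0.09.

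Members that share a host are given side by side. In Rps3a1, Snord73a differed by 0.86 (SE 0.68) and Snord73b by -0.33 (SE 0.63), or 0.14 without knockdown replicate 2, while the host differed by -0.18 (SE 0.12). In the nucleolin gene Ncl, Snord82 and Snora75 differed by 0.85 (SE 0.77) and 0.31 (SE 0.67). In Rps3, Snord15a and Snord15b differed by 0.50 (SE 0.48) and 0.37 (SE 0.44). Across the 31 pairs, which share arrays and in part hosts, the differences of member and host had a Pearson correlation of -0.10. The host differences of Hspa8, Ipo7, Wdr43 and Rpl27a turned sign with loess normalization.

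**Figure D4:**
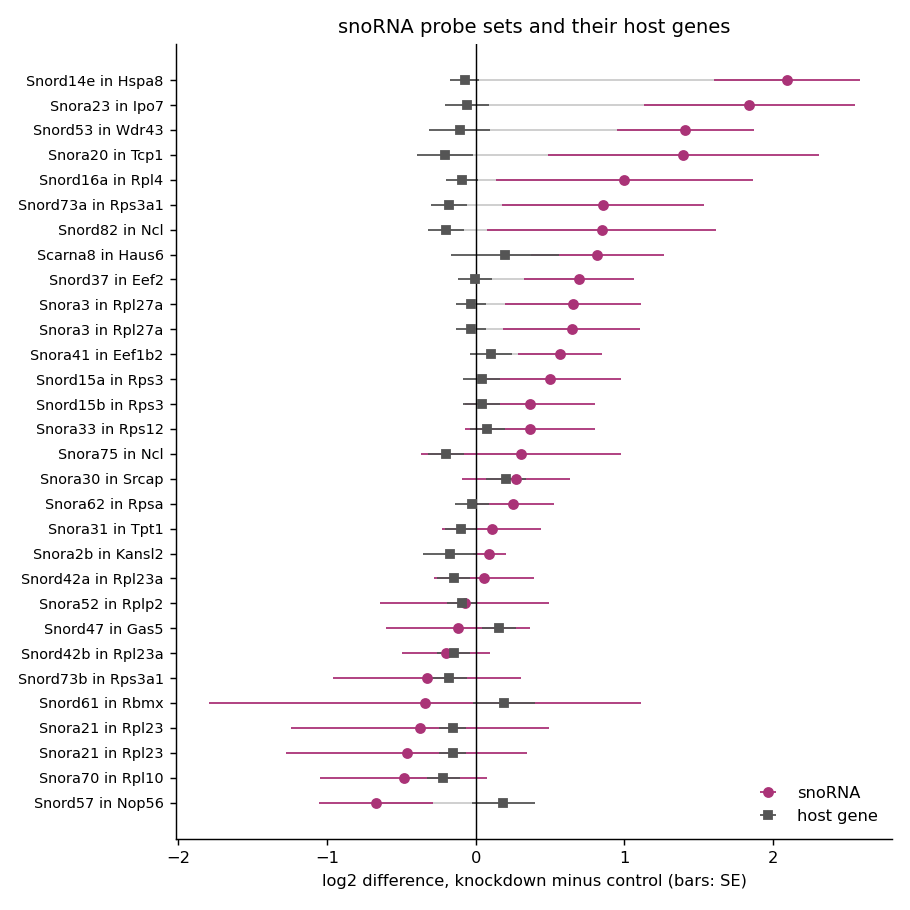
Log2 difference, knockdown minus control (x axis), of each snoRNA probe set with a measured host (circles). Squares show the brightest probe set of the host gene, with SE bars on both. The identical Snora30 pair is drawn once. Hosts lie between -0.22 and 0.20, and the snoRNAs reach 2.10.

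Genes for the proteins of snoRNA particles were mostly lower in the knockdown arrays, and none passed the adjusted threshold. Of 25 genes listed, 21 were lower and 4 higher, with a median difference of -0.22. At an unadjusted p under 0.05, 1 was lower (4%), against 2.96% of all probe sets. That gene was Dkc1, the pseudouridine synthase, at 7.30, 7.30, 7.41 and 7.39 in controls and 6.65, 7.29 and 6.51 in knockdown arrays, a difference of -0.53 (SE 0.19). The groups were apart, although the second knockdown array nearly reached the controls. Wrap53, which takes scaRNAs to the Cajal body, differed by -0.49 (SE 0.23), the box C/D core protein gene Nop58 by -0.49 (SE 0.27), and Smn1, of particle assembly, by -0.57 (SE 0.34). The median deviation of the list was -0.22, 0.13 and -0.43 in the 3 knockdown arrays. Over all 4120 probe sets with a level over 8, the median difference was -0.14 and 27.2% were higher. The listed genes had a median level of 7.64, from 5.09 to 10.6, so most lay under level 8.

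Only 4 of the 298 hairpin probe sets were higher at an unadjusted p under 0.05. This share, 1.34%, was below the 2.92% of all probe sets and the 2.46% of those under level 4. Mir383 (probe set 10578262), in an intron of the sarcoglycan gene Sgcz, had the smallest p of the 4. Its level was 6.24, 6.14, 6.04 and 6.05 in controls and 6.46, 6.45 and 6.67 in knockdown arrays, a difference of 0.41 (SE 0.11, unadjusted p = 0.00753). The groups were apart, with little spread in either, and Sgcz differed by -0.13 (SE 0.15) at a level of 3.35.

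Mir150, known from lymphocytes, was at 4.44, 4.59, 4.58 and 4.49 in controls and at 5.19, 4.72 and 5.16 in knockdown arrays, a difference of 0.50 (SE 0.14). Its groups were also apart. Mir330, in the microtubule-associated protein gene Eml2, was at 4.31, 4.13, 4.14 and 4.14 and then at 4.86, 4.33 and 5.13, a difference of 0.59 (SE 0.19). The second knockdown array was only just above the highest control. Its host Eml2 differed by 0.28 (SE 0.20), and Mir326, which shares the miR-330-5p seed, by 0.23 (SE 0.25).

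Mir222 was at 3.15, 3.17, 3.39 and 3.17 in controls and at 4.15, 3.82 and 3.36 in knockdown arrays, a difference of 0.55 (SE 0.19), with overlap at a dim level. Its neighbour Mir221, of the same seed, differed by -0.02 (SE 0.11). Whether the neighbours differ from each other in response was not tested.

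Among the lower members, Mir124a-2 (probe set 10490942), 1 of the miR-124 loci of neurons, had the smallest p of all microRNA probe sets. Its level was 4.75, 4.73, 4.88 and 4.79 in controls and 4.39, 4.01 and 4.23 in knockdown arrays. All knockdown arrays lay below all controls, with means of 4.78 ± 0.07 (SD, n = 4) and 4.21 ± 0.19 (SD, n = 3). The difference was -0.57 (SE 0.12, 95% interval -0.86 to -0.29; limma's unadjusted p = 0.0021, adjusted p = 0.815). Mir124a-3, another locus of that microRNA, differed by -0.14 (SE 0.12) at a level of 3.61, with overlap. Of the 11 measured cortical progenitor and neuron markers 7 were lower in the same arrays, with a median of -0.07 over the 11. Neurod6 differed by -0.71 (SE 0.14), Dcx by -0.52 (SE 0.20) and Tbr1 by -0.39 (SE 0.25). Fabp7, Vim, Pax6 and Neurog2 were higher, by 0.02 to 0.29. The part of these markers in the Mir124a-2 value was not tested.

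Mir125a was at 4.56, 4.27, 4.48 and 4.16 in controls and at 4.02, 4.07 and 3.90 in knockdown arrays, a difference of -0.37 (SE 0.13) with groups apart. Mir695 differed by -0.28 (SE 0.11), and 3 of its controls shared the value 4.051. Mir103-2, in an intron of the pantothenate kinase gene Pank2, had a larger difference of -1.44 (SE 0.69) that rested on controls of 6.11, 3.74, 3.04 and 5.001 against 2.83, 3.12 and 3.16. Mir103-1, which encodes the same mature strand, differed by -0.03 (SE 0.16), and Pank2 by 0.06 (SE 0.25), a sign that turned with the array medians set equal.

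The neural microRNAs were mixed in direction. Of 39 probe sets of a list of neural microRNAs, 21 were higher and 18 lower, with a median difference of 0.01 and a median level of 3.70, and 23 had a level under 4. With the array medians set equal, 14 were higher. Mir9-1, of a family that acts on progenitors, was at 7.09, 6.62, 5.84 and 4.62 in controls and at 4.50, 5.58 and 5.98 in knockdown arrays, a difference of -0.69 (SE 0.64). The controls alone spanned more than this difference. Mir9-3, with the same mature strand, differed by 0.24 (SE 0.33). Mir7-1 differed by -0.49 (SE 0.49) and its host Hnrnpk by -0.06 (SE 0.11), and Mir181b-1 by 1.53 (SE 0.84), from controls of 2.98, 3.04, 3.32 and 5.62. The 9 loci with the let-7 seed in a RefSeq mature sequence, which leave out Mirlet7a-2, had a median difference of 0.07. Of these 9, 6 were higher, or 4 with the array medians set equal. The highest of them, Mirlet7f-1 at 1.06 (SE 0.96), rested on a value of 7.32 in the first knockdown array, against 3.61 and 3.31 in the others.

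MicroRNAs typical of other tissues were dimmer still. Of 35 probe sets listed for blood, muscle, liver, epithelium and stem cells, 31 had a level under 4 (88.6%), and the median level was 3.20. The brightest, Mir194-2 and Mir194-1 of gut and liver, were at 6.01 and 5.30 and differed by 0.17 (SE 0.13) and 0.25 (SE 0.13). The liver microRNA Mir122 was at 3.91 and differed by 0.45 (SE 0.20). All 5 probe sets of the Mir302 cluster of pluripotent cells were under 4 and lower in knockdown arrays, by 0.11 to 0.50, with none at an unadjusted p under 0.05.

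At an unadjusted p under 0.05, 9 microRNA probe sets were higher. Of these, 5 read long transcripts of microRNA host genes, from 2 genes, Mir99ahg (4) and Mir100hg (1). All 4 probe sets of Mir99ahg, a long non-coding RNA gene on chromosome 16, were higher, by 1.50 (SE 0.54), 1.27 (SE 0.46), 1.08 (SE 0.42) and 0.78 (SE 0.28). They read 1 gene and are not independent. The brightest was at 7.58, 7.16, 6.61 and 6.45 in controls and at 8.96, 7.22 and 8.49 in knockdown arrays, with the second knockdown array inside the control range. The other 3 probe sets had groups apart. Mir100hg was at 9.25, 9.83, 9.44 and 9.26 and then at 10.1, 9.56 and 10.4, a difference of 0.57 (SE 0.24) with overlap. Mir17hg and Mir670hg differed by -0.03 (SE 0.22) and -0.11 (SE 0.50).

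The hairpins beside these hosts gave other values, and the difference between hairpin and host was not tested. Of the hairpins printed above, Mir99a was at 9.22, 8.68, 9.08 and 7.62 in controls and at 3.44, 8.46 and 8.88 in knockdown arrays. Its range of 5.79 was the widest of all members, and it was low in 1 array only, the one in which the brightest Mir99ahg probe set was highest. The difference was -1.73 (SE 1.30), and 0.02 without that array. Mirlet7c-1 and Mir125b-2 of the same locus, which lies downstream of the RefSeq span of Mir99ahg on the same strand, differed by -0.22 (SE 0.22) and -0.05 (SE 0.11) at levels of 3.12 and 2.84.

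In the locus inside Mir100hg, Mir100, Mirlet7a-2 and Mir125b-1 differed by -0.01 (SE 0.11), 0.12 (SE 0.15) and 0.09 (SE 0.58) and had levels under 4. In the third locus, inside the span of Spaca6, a sperm protein gene, Mir99b, Mirlet7e and Mir125a were all lower, by 0.08, 0.09 and 0.37. Spaca6 itself was higher by 0.73 (SE 0.26), with overlap.

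**Figure D5:**
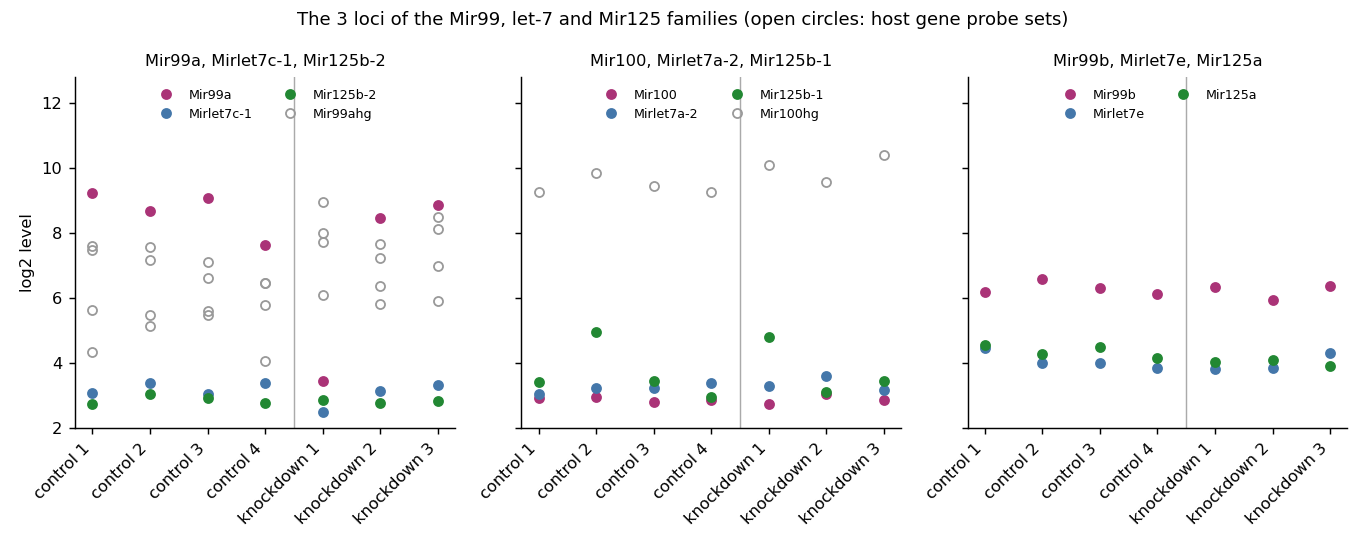
Log2 level (y axis) in each array (x axis, controls left of the line) of the hairpin probe sets of the 3 loci (filled circles) and of the Mir99ahg and Mir100hg host transcripts (open circles). Mir99a drops to 3.44 in knockdown array 1 only, and most other hairpins stay under 5 while the hosts reach 8.96 and 10.4.

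The clustered hairpins of proliferating cells varied together between control arrays. In the Mir17 cluster, which promotes proliferation, Mir17 was at 4.53, 6.18, 7.41 and 4.89 in controls and at 6.00, 5.81 and 5.18 in knockdown arrays. Mir19b-1 was at 4.28, 6.05, 6.90 and 4.13 and then at 4.39, 5.58 and 4.26, and Mir18 and Mir20a were also highest in the third control. The 6 probe sets of the cluster had a median difference of -0.19, with 1 higher and standard errors of up to 0.75, while the host transcript Mir17hg was steady between 4.83 and 5.46. In the Mcm7 cluster, Mir25 was at 5.03, 7.20, 5.99 and 6.07 and then at 7.24, 7.41 and 6.43, a difference of 0.95 (SE 0.50) with overlap. Its neighbours Mir93 and Mir106b differed by 0.12 (SE 0.14) and 0.09 (SE 0.13), and Mcm7, a replicative helicase subunit, by -0.02 (SE 0.31), a sign that depended on the scaling.

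Members with 1 seed in different loci were also compared. The 6 loci of the AAAGUGC seed of miR-17 and miR-106b had differences from -0.09 to 0.48, with 5 higher, or 3 with the array medians set equal. The 6 loci of the AUUGCAC seed of miR-25 and miR-92b ranged from -0.39 to 0.95, with 2 higher, and Mir92b differed by 0.63 (SE 0.37). The 6 loci of the AGCAGCA seed of the miR-15 and miR-16 family had differences from 0.001 to 0.40, but only 3 of them were above 0 with the array medians set equal or after a further quantile normalization. The brightest of these, Mir15a, was at 4.84, 6.10, 5.53 and 7.33 in controls and at 4.65, 6.95 and 7.46 in knockdown arrays, and its sign turned without knockdown replicate 3.

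The imprinted Dlk1 to Dio3 region on chromosome 12 held 40 hairpin probe sets, of which 34 were higher, with a median difference of 0.14 and 0 at an unadjusted p under 0.05. Of them, 29 had a level under 4, and 59.9% of all probe sets under that level were higher. With the array medians set equal, 24 of the 40 were higher, with a median of 0.03, against 32% of all probe sets under level 4. After a further quantile or a loess normalization 31 were higher, against 45.4% and 49.6% of those dim probe sets. The long RNA Meg3 of the region differed by 2.02 (SE 0.39), or 1.55 without knockdown replicate 3. Rian, another, was at 4.63, 3.47 and 7.02 in knockdown arrays, the second below the highest control at 3.82, and differed by 1.64 (SE 0.77), or 0.65 (SE 0.36) without knockdown replicate 3. Among the hairpins the largest difference was 0.63, of Mir679. The groups were apart for Mir487b and Mir539, both higher. These are 5% of the 40, near the 3.34% of all probe sets and the 4.12% of those under level 4.

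Over all 126 microRNA probe sets with a measured host, in 92 genes, the median difference was 0.06 for the members and 0.05 for the hosts. The Pearson correlation of their differences across these pairs, which share arrays and in part hosts, was -0.06.

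The genes that process microRNAs were mixed in direction. Of 24 genes listed, 12 were higher and 12 lower, with a median difference of -0.01, or 9 and 15 with the array medians set equal. At an unadjusted p under 0.05, 8.33% of them were higher and 8.33% lower, against 2.92% and 2.96% of all probe sets, and none passed the adjusted threshold. The silencing cofactor gene Tnrc6b and the editing enzyme gene Adarb1 were higher, by 0.40 (SE 0.10) and 0.41 (SE 0.16). The exonuclease gene Dis3l2 and Tnrc6c, a relative of Tnrc6b, were lower, by 0.45 (SE 0.13) and 0.41 (SE 0.13). Drosha differed by 0.002 (SE 0.15), Dgcr8 by -0.53 (SE 0.27) and Dicer1 by 0.25 (SE 0.13).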

How the data were processed

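Each of 7 RNA samples, 4 control and 3 knockdown, had its own Affymetrix array. RNA was purified on RNeasy columns and labelled after whole-transcriptome amplification, per the labels' protocols. The deposited values are log2 expression, which the authors computed by RMA (Affymetrix Expression Console, version 1.2, according to the submitters' processing notes). RMA normalizes the arrays to each other and compresses dim differences. For the array annotation, a genome build was not given in the sources used here.

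Each probe set was fitted by limma 3.58.1 in R 4.3.3 (lmFit, eBayes without trend, no block, two-sided, 5 residual and 1.90 prior degrees of freedom), and p-values were adjusted by Benjamini-Hochberg over all 35556 probe sets, with a threshold of 0.05. Standard errors and 95% intervals are limma's. The annotation table gave 1 symbol for 21789 probe sets, several for 1621 and none for 12146. Hosts are the smallest RefSeq gene span of GRCm38.p6 holding the small RNA gene, on the same strand where strands could be compared (snoRNA strands were not compared), each read by its brightest probe set. Other genes on lists were also read by their brightest probe set. The position of these probe sets was not checked, so one read for a host may lie outside the host locus.

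The members and lists were chosen with earlier results of these data known. Named are Trnp1, per class the 8 smallest p in each direction and the 8 brightest, per microRNA list the 4 of smallest p and the 4 brightest, their hosts, and the 4 processing genes of smallest p per list. Members named outside this rule (such as Snora20, Snord61, Snord16a, Snord35b, Mirlet7f-1 and relatives sharing a seed, host or cluster) were chosen after their values were seen. On simulated data over 35556 probe sets with 200 changed, limma recovered 35.8% of changes of 1 log2 unit and 74.6% of changes of 2, with 6.8 false calls per run. Same-numbered replicates had correlations of deviations of 0.003, -0.020 and -0.014, which gave no sign that the numbers pair samples. Such correlations cannot exclude a shared litter or day, and no label states one. Alternatives were other priors, array weights, scalings, filters on dim probe sets, 1 probe set per symbol, a replicate block and each array left out. Added after the data were seen were annotated probe sets only and identical probe sets counted once.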

Additional observations from a re-analysis of the deposited data

Results flagged for a closer look

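In 10 of the 89 probe sets examined, 1 control array stood apart from the other 3 by Dixon's test at its 95% critical value, a result that chance gives in about 1 of 20 groups. Control replicate 1 was the array that stood apart for Mir301 (2.745), Mir330 (4.309), Mir695 (4.233) and Snord33 (7.499, against 9.268 to 9.56 in the others). Control replicate 2 stood apart for Tnrc6c (8.195), and control replicate 3 for Mir106a (3.073) and Mir222 (3.394). Control replicate 4 stood apart for Mir181b-1 (5.617, against 2.984 to 3.32), Mir346 (7.321) and 1 probe set of Mir99ahg (4.058, against 5.468 to 5.643). The gap was over 1 log2 unit only for Snord33, Mir181b-1 and Mir99ahg. For Mir695 the other 3 controls held the identical value 4.051.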

How the results depend on the processing

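No microRNA or snoRNA probe set passed the adjusted threshold under any alternative, and over all probe sets the count was 0 under each alternative except without knockdown replicate 2, where 1 probe set without a gene symbol passed. The microRNA probe sets higher at an unadjusted p under 0.05 numbered 14 with an intensity trend. Those lower numbered 6 with array medians set equal, 5 after a further quantile normalization and 1 with the dimmest 50% left out. The median difference of all probe sets was -0.09692, -0.02464 and -0.05237 under those same 3 settings. The microRNA median was -0.05225 with equal medians, 0.001857 after quantile normalization, and 0.1089 and 0.1955 with the dimmest 25% and 50% left out. The count of microRNA probe sets above 0 was 120 with equal medians, and 106 and 51 with the dimmest 25% and 50% left out, where fewer probe sets were tested. The cause of the other changes was not tested. Apart from the fits that left out 1 array, the snoRNA median stayed between 0.1834 and 0.3658.

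The replicate block was fitted although no label states that the numbers pair samples. Number 4 occurs only among the controls, so control replicate 4 adds nothing to the difference in this fit. With it, 5 microRNA probe sets were higher and 5 lower at an unadjusted p under 0.05. For snoRNA probe sets, 4 were higher and 1 lower. The block also turned Pank2 (-0.159) and Snord33 (0.098), the same differences as without control replicate 4.

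Leaving out 1 array at a time gave 5 to 29 microRNA probe sets higher (29 without knockdown replicate 2) and 1 to 4 lower, 2 to 11 snoRNA probe sets higher and 0 to 1 lower, and 0 to 1 called over all. The counts above 0 ranged from 159 to 213 for microRNAs and from 40 to 51 for snoRNAs. The medians ranged from 0.0115 to 0.09725 for microRNAs, from 0.1985 to 0.5319 for snoRNAs and from -0.00325 to 0.02 for all probe sets. The difference kept its sign whichever array was left out for 100 of the 197 higher and 41 of the 108 lower microRNA probe sets, and for 30 of 47 and 3 of 13 snoRNA probe sets.

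Among named members and hosts, quantile and loess normalization turned Hnrnpk (0.03988 and 0.06903), Ipo7 (0.04814 and 0.07555), Mcm7 (0.06911 and 0.1091), Mir670hg (0.001845 and 0.02171), Rpl27a (0.04399 and 0.09418) and Snord33 (0.02948 and 0.06064). Loess alone turned Hspa8 (0.04905) and Wdr43 (0.02357), array weights turned Mir27a (-0.02239) and Pank2 (-0.01617), and equal medians turned Pank2 (-0.05008). Leaving out 1 array turned the sign within these ranges: Clcn5 -0.267 to 0.05775, Ipo7 -0.1168 to 0.03433, Mcm7 -0.2308 to 0.1277, Mir15a -0.1522 to 1.256, Mir17 -0.4943 to 0.4653, Mir27a -0.293 to 0.4637, Mir375 -0.2313 to 0.03475, Mir670hg -0.5237 to 0.1747, Mir692-1 -0.3247 to 0.01975, Mir99a -2.704 to 0.01625, Pank2 -0.159 to 0.2113, Rpl27a -0.06075 to 0.01067, Snora21 -0.9863 to 0.1867 and -0.907 to 0.3237 for its probe sets, Snord33 -0.7385 to 0.519, Snord42b -0.3407 to 0.051, Snord49b -0.1018 to 1.306, Snord73b -0.766 to 0.14, Snord87 -1.507 to 0.1362 and Wdr43 -0.2698 to 0.1277. Most microRNA probe sets are near background, where RMA shrinks a difference.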
